A study of Homo sapiens with 24 samples.

Results

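The comparison described here set the papillary thyroid carcinoma line TPC-1 against Nthy-ori 3-1, normal follicular cells of the thyroid made immortal with SV40, in wells that had received a non-targeting siRNA. It used the 12 control arrays of a series of 24, 6 per line, and 18632 genes measured on every array. The arrays were chosen by their labels alone, as every well with the control siRNA, collected 48 h or 72 h after transfection, with 3 arrays per line and time. The whole study transfected the same lines with siRNA against COPZ1, a subunit of the COPI vesicle coat, or with the control siRNA. TPC-1 was kept in DMEM with 10% fetal bovine serum, glutamine and antibiotics, whereas Nthy-ori 3-1 was kept in RPMI 1640 medium, for which the labels name no additions. All cells received 20 nM of siRNA with the lipid reagent Lipofectamine RNAiMAX. Line and medium therefore cannot be told apart in any value below. Each tissue state was represented by a single line. The triplicates were wells and nothing says that they came from separate experiments, so a p-value measures the spread between wells and may be technical.

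Thyroid follicular cells make thyroglobulin, take up iodide through a transporter and couple it to thyroglobulin, under control of the TSH receptor and of the transcription factors PAX8, NKX2-1, FOXE1 and HHEX. Papillary carcinoma is usually driven by a single activated member of the MAPK cascade, often BRAF or a fusion of the receptor tyrosine kinase RET. TPC-1 is known for a rearrangement in which the promoter and first exon of CCDC6 are joined to the kinase part of RET. SV40 large T antigen, used to immortalise Nthy-ori 3-1, binds and inactivates the RB family.

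Values were log2 expression levels per gene from a robust multi-array average (RMA), so a difference of 1 is 2-fold. A gene was called different at a limma adjusted p below 0.05 in a fit with line and time. The lines differed at 7748 of 18632 genes, or 41.6%, with 3497 higher (18.8%) and 4251 lower (22.8%) in TPC-1. A difference of at least 2-fold as well was seen for 2479 genes (13.3%), of which 1254 (6.73%) were higher and 1225 (6.57%) lower. Large differences leaned towards TPC-1: 422 genes (2.26%) were at least 4-fold higher and 204 (1.09%) at least 4-fold lower, and 82 against 19 passed 16-fold. The median difference over all genes was -0.01, and the median absolute difference 0.29. The 6 values of one line lay entirely outside those of the other for 4274 genes, or 22.9%, with TPC-1 above for 10.5% and below for 12.5%. Arrays of a line and time correlated at 0.971 to 0.988 and arrays of different lines at 0.904 to 0.945. The first principal component of the 12 arrays held 68.1% of the variance and separated the lines. On it the TPC-1 48 h arrays 2 and 3 scored 31.3 and 47.9, nearer to Nthy-ori 3-1 than the other 4 TPC-1 arrays, which scored 60.5 to 70.1. No gene passed the test for a change of the line difference between 48 h and 72 h in limma, with 1836 of 18632 genes at an unadjusted p below 0.05. With 3 arrays per line and time, this lack of calls does not show that the line difference stayed the same. Without TPC-1 48 h array 1, 173 genes passed the adjusted test and 2724 had an unadjusted p below 0.05.

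**Figure D1:**
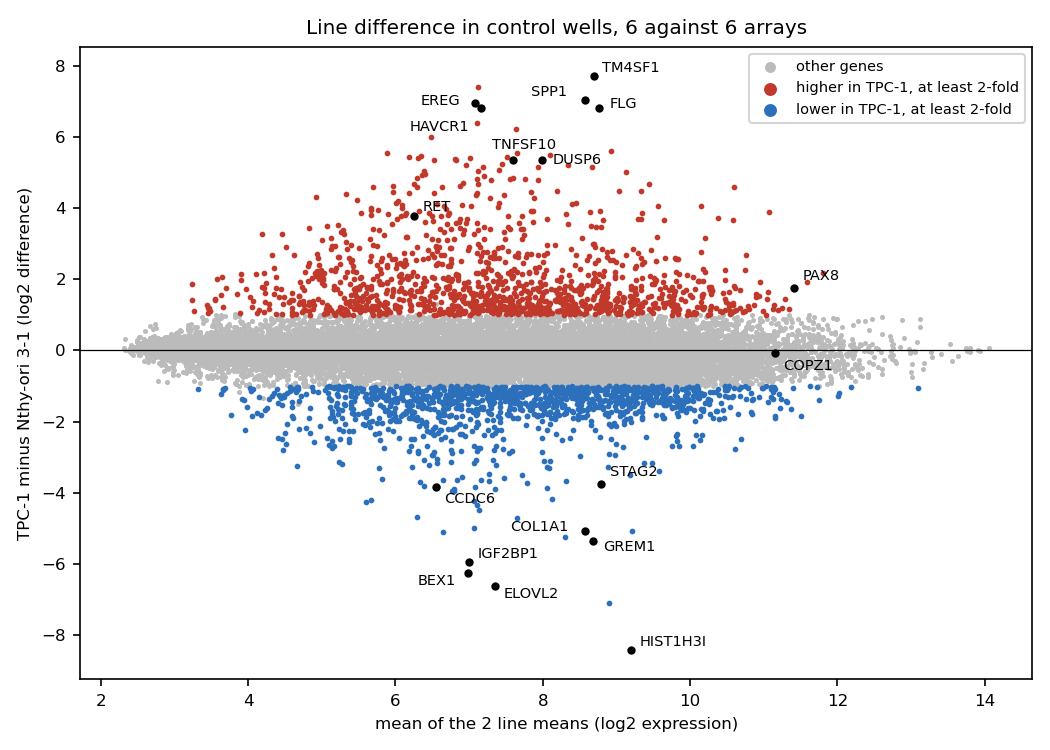
TPC-1 minus Nthy-ori 3-1 log2 difference (vertical axis) against the mean of the 2 line means (horizontal axis, log2 expression), 1 point per gene, from 6 control arrays per line. Red and blue points are the 1254 genes higher and 1225 genes lower by at least 2-fold at an adjusted p below 0.05, and the named genes in black reach from HIST1H3I at -8.43 to TM4SF1 at 7.73.

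The named gene with the largest excess in TPC-1 was TM4SF1, which encodes a tetraspanin-like membrane protein of migrating and tumour cells. Its lowest, median and highest log2 levels were 4.42, 4.77 and 5.24 in Nthy-ori 3-1 against 12.29, 12.59 and 12.89 in TPC-1. The difference was 7.73 ± 0.14 (SE, n = 6 per line), or 212-fold (adjusted p 5.93e-13). Every TPC-1 array stood far above every Nthy-ori 3-1 array, and the levels in the latter lay below the median of all genes on an array, which was 6.63 to 6.69. SPP1, the secreted adhesion protein osteopontin, had 4.66, 5.04 and 5.50 in Nthy-ori 3-1 against 11.14, 12.29 and 12.60 in TPC-1, a 133-fold difference. EREG, the EGF receptor ligand epiregulin, had 2.99, 3.60 and 4.07 against 10.30, 10.59 and 10.76, a 125-fold difference. For both genes the arrays of a line kept together. The 15 largest were taken only from genes whose lines did not overlap, so the lack of overlap was fixed by that choice. FLG, the epidermal barrier protein filaggrin, was 113-fold higher, HAVCR1, a phosphatidylserine receptor known from injured kidney tubules, 112-fold, and LGR5, a receptor for R-spondins that marks stem cells in several epithelia, 83.8-fold. The rest of the 15 largest were C14orf105 at 7.41, VEPH1 at 6.24, MCTP1 at 6.0, ALOX5AP at 5.60, SCN3A at 5.57, RELN at 5.55, SLCO4C1 at 5.50, ADGRL4 at 5.46 and CDH6 at 5.45 on the log2 scale. They hold a leukotriene synthesis helper (ALOX5AP), a sodium channel subunit (SCN3A), the secreted glycoprotein reelin (RELN), an organic anion transporter (SLCO4C1), an adhesion receptor (ADGRL4) and a cadherin (CDH6). All 15 were called higher in the COPZ1-depleted wells too, at 3.47 to 7.78, where 40.2% of all genes were called. Of all genes called with at least a 2-fold difference, 94.2% were called in the same direction there.

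In the opposite direction, the 2 largest differences among the named genes were of histone genes. HIST1H3I had 13.17, 13.43 and 13.65 in Nthy-ori 3-1 against 4.39, 4.87 and 5.57 in TPC-1, a difference of -8.43 ± 0.16, and HIST1H4L differed by -7.11 ± 0.27. Genes of this family are near-identical, so probes may be shared and the assignment to single members is uncertain. ELOVL2, which elongates very long polyunsaturated fatty acids, had 10.47, 10.68 and 10.80 against 3.82, 4.01 and 4.38, a 97.8-fold deficit in TPC-1 (adjusted p 2.21e-13). GREM1, a secreted BMP antagonist, had 10.43, 11.41 and 12.20 against 5.65, 6.01 and 6.27, a 40.7-fold deficit. COL1A1, a chain of type I collagen, had a median of 11.05 and a highest level of 11.34 against 6.04 and 6.40 in TPC-1. These genes were bright in each Nthy-ori 3-1 array and dim in each TPC-1 array. BEX1 (-6.24), the RNA-binding protein IGF2BP1 (-5.94), the cytokine receptor IL7R (-5.25), the YAP target ANKRD1 (-5.10), the imprinted PEG10 (-5.07), the intermediate filament INA (-4.99), CLDN11 (-4.72), the desmosomal cadherin DSC3 (-4.68), SLFN11 (-4.48), which sensitises cells to DNA damage, and the transcription factor FOXD1 (-4.34) completed the 15. In the depleted wells 14 of the 15 stood at -3.94 to -8.61, while IL7R stood at -1.97.

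The RefSeq promoters of genes at the 2 ends of the range differed in CpG content. Windows of 300 bases around the start site (GRCh38.p14) were matched for 14744 tested genes, 315 of those at least 4-fold higher and 159 of those at least 4-fold lower. A ratio of observed to expected CpG above 0.6 was found in 67.6% of all windows, in 53% of the windows of the higher genes and in 78% of those of the lower genes, and the median GC share was 63%, 60.3% and 65.3%. TM4SF1 (chr3:149377600-149377899, minus strand) shows the CpG-poor kind, with 4 CpG in the window, and ELOVL2 (chr6:11044256-11044555, minus strand) and GREM1 (chr15:32717754-32718053, plus strand) the CpG-dense kind, with 52 and 42. They are printed 5′ to 3′ with every CG in capitals.
TM4SF1: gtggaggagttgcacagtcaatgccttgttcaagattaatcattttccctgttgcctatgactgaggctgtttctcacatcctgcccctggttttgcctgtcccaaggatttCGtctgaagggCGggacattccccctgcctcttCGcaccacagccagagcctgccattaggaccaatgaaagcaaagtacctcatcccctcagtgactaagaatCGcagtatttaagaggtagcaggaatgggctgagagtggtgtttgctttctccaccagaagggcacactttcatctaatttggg
ELOVL2: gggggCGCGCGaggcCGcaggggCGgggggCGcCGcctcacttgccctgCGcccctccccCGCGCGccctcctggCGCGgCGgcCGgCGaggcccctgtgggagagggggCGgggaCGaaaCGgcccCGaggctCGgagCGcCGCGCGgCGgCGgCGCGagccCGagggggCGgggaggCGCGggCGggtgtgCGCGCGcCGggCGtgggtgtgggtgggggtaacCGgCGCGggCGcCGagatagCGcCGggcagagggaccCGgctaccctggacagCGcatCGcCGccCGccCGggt
GREM1: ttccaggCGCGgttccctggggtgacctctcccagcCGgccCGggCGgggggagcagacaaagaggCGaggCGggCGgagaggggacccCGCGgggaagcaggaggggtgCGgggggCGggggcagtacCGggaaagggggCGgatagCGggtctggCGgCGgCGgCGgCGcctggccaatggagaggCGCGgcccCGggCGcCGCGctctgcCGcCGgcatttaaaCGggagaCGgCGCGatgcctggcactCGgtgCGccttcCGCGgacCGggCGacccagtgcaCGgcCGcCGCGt
These examples were chosen after the values were seen, and methylation was not measured.

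The products that define working follicular cells were dim in both lines. Of 20 genes of thyroid identity, 5 were higher in TPC-1, 2 were lower and 13 were not called, so that 35% were called against 41.6% of all genes. Thyroglobulin (TG) had 5.47, 6.09 and 6.90 in Nthy-ori 3-1 against 5.84, 6.34 and 6.63 in TPC-1, a difference of 0.16 ± 0.22. Differences were -0.21 for TSHR and -0.23 for the iodide transporter SLC5A5, with all their arrays between 3.98 and 5.35. These levels overlapped between lines and lay in the range of markers of unrelated cell types (line means of 3.05 to 6.57), although levels of different genes on an array are not strictly comparable. NKX2-1 and FOXE1 differed by 0.19 and 0.45 and were not called, although FOXE1 was called at 0.57 without TPC-1 48 h array 2 and at 0.53 without array 3. PAX8, the factor that drives thyroid and also kidney development, was bright in both lines and brighter in TPC-1, with 10.10, 10.55 and 10.99 against 11.95, 12.34 and 12.41. Its difference of 1.75 ± 0.16 (adjusted p 1.51e-06) did not rest on any single array, since the lines did not overlap. The factor GLIS3 (1.35), ID4 (0.66) and the anion exchanger SLC26A7 (0.57) were also higher, the last of these with overlapping arrays and at 0.04 in the depleted wells. DIO2, the deiodinase that activates thyroid hormone, was lower by -1.64 and HHEX by -1.0.

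RET and CCDC6, the partners of the TPC-1 rearrangement, moved in opposite directions by similar amounts. RET had 4.11, 4.30 and 4.69 in Nthy-ori 3-1 against 7.67, 8.07 and 8.74 in TPC-1, a difference of 3.79 ± 0.17 or 13.9-fold (adjusted p 2.38e-09). CCDC6 had 8.11, 8.46 and 8.99 in Nthy-ori 3-1 against 4.15, 4.73 and 5.20 in TPC-1, a difference of -3.83 ± 0.19 or 14.2-fold lower (adjusted p 5.28e-09). The lines did not overlap for either gene, and in the depleted wells the differences were 3.32 and -4.13. A value per gene sums probes along the transcript, so it does not show which part of a rearranged gene was read.

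Targets and feedback inhibitors of MAPK signalling were higher in TPC-1. Of the 28 members of the list that also holds RET and CCDC6, 19 were higher and 1, CCDC6, lower, with 14 at least 2-fold higher; the share called was 71.4% against 41.6% of all genes, and the median difference was 1.12 against -0.01 over all genes. DUSP6, the phosphatase that removes phosphate from ERK, had 4.61, 5.55 and 5.63 in Nthy-ori 3-1 against 9.45, 10.84 and 11.29 in TPC-1, a 40.9-fold difference. The Sprouty inhibitors SPRY4 and SPRY1 differed by 3.87 and 2.97, and the ETS factor ETV1 by 3.57. No array of TPC-1 reached down to Nthy-ori 3-1 for these 4 genes. ETV4 (1.61), ETV5 (1.26), SPRY2 (1.59), FOSL1 (1.76), EPHA2 (1.73) and PHLDA1 (2.69) were called as well, whereas the immediate early genes FOS (0.14), EGR1 (0.41) and JUNB (0.53), the phosphatases DUSP4 (0.15) and DUSP5 (0.00) and MYC (0.31) were not. The count of higher members was 13 with the 48 h arrays alone, 21 with the 72 h arrays alone, and 22 in the depleted wells.

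**Figure D2:**
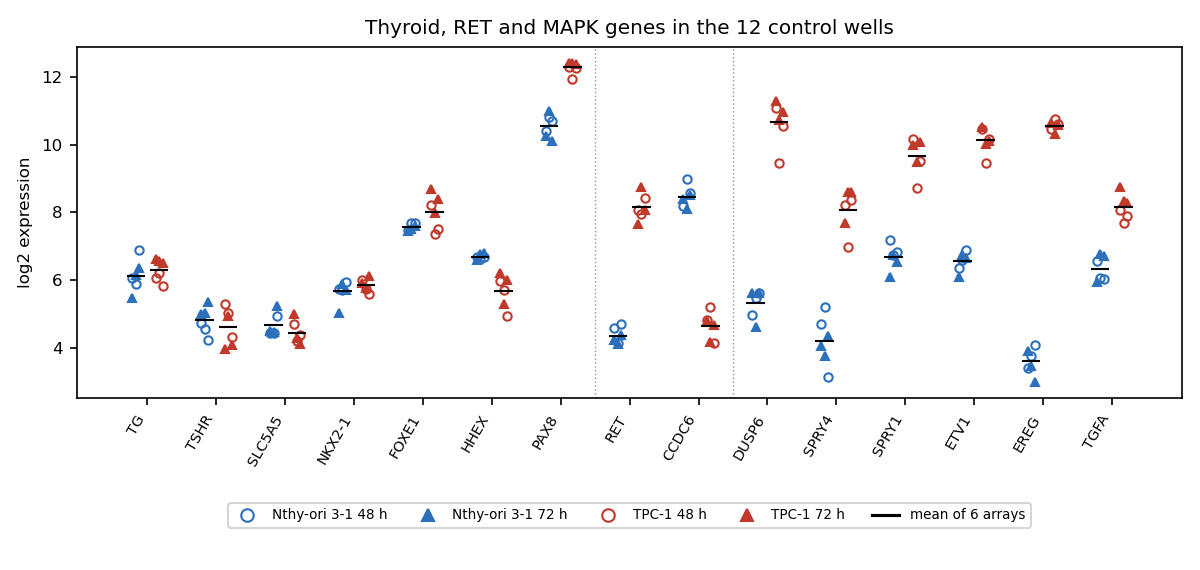
Log2 expression (vertical axis) of 15 genes in each of the 12 control arrays, blue for Nthy-ori 3-1 and red for TPC-1, open circles at 48 h and triangles at 72 h, with a bar at the mean of 6 arrays. TG, TSHR and SLC5A5 overlap between the lines, RET and CCDC6 trade places, and DUSP6, SPRY4, SPRY1, ETV1 and EREG lie apart with TPC-1 above.

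Growth factor genes differed in both directions. Of 22 ligand genes, 10 were higher and 4 lower (63.6% called against 41.6% of all genes), and besides EREG the EGF receptor ligand TGFA was higher at 1.83, PDGFD at 1.77, VEGFA at 1.23 and FGF2 at 1.22, whereas HBEGF was lower at -1.70 (-0.44 and not called in the depleted wells). Of 26 receptor genes, 7 were higher and 8 lower (57.7% called). FGFR2 had 8.87, 9.33 and 9.52 in Nthy-ori 3-1 against 4.63, 5.69 and 6.48 in TPC-1, an 11.9-fold deficit, while FGFR4 (1.75) and FGFR1 (1.31) were higher. The ERBB family member ERBB3 (-2.32) and the insulin-type receptors IGF1R (-1.33) and INSR (-1.23) were lower, and MET (1.24), AXL (1.30) and NTRK3 (1.31) were higher. FGFR4 differed by only 0.07 in the depleted wells. In the list of IGF-binding and oncofetal RNA-binding genes, of which 5 of 15 were higher and 4 lower (60% called), IGFBP5 (2.63) and IGFBP7 (2.20) were higher and IGF2BP1 and PEG10 lower.

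DNA replication and mitosis genes were lower in TPC-1. All 33 replication genes had a difference below 0 and 31 were called, 93.9% against 41.6% of all genes, 22 of them by at least 2-fold, with a median of -1.30. All 28 mitosis genes were below 0 as well, 24 were called (85.7%) and the median was -1.19. MCM10, which helps to fire origins, had 10.83, 11.01 and 11.14 in Nthy-ori 3-1 against 7.12, 8.48 and 10.02 in TPC-1, a difference of -2.40 ± 0.37. PCNA, the sliding clamp (-1.84), the helicase subunits MCM7 (-1.84) and MCM6 (-1.71), CDC45 (-1.90), the ubiquitin-conjugating enzyme UBE2C (-2.24), the phosphatase CDC25C (-2.07), the kinases AURKA (-1.67) and CDK1 (-1.64) and the motor KIF11 (-1.61) were lower too. UHRF1 (-0.21), POLD1 (-0.26), PLK1 (-0.19), CDC20 (-0.28), KIF20A (-0.59) and ECT2 (-0.04) were not called. The proliferation marker MKI67 differed by -0.56 (adjusted p 0.0304), a call that was lost with either time alone and, at -0.50 to -0.54, without TPC-1 48 h array 1 or 72 h array 3 or Nthy-ori 3-1 72 h array 2 or 3.

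The size of this deficit varied among the TPC-1 arrays more than among the Nthy-ori 3-1 arrays. The mean log2 level of the replication list was 9.68 to 9.90 in the 6 Nthy-ori 3-1 arrays. It was 8.31, 9.46 and 9.26 in TPC-1 arrays 1, 2 and 3 at 48 h, and 7.79, 8.37 and 7.78 at 72 h. For mitosis the range in Nthy-ori 3-1 was 10.80 to 10.94, and TPC-1 had 9.75, 10.65 and 10.34 at 48 h and 8.81, 9.82 and 9.07 at 72 h. Every TPC-1 array was below every Nthy-ori 3-1 array in both lists, and 48 h arrays 2 and 3 were the closest. The median difference was -0.74 at 48 h and -1.93 at 72 h for replication, and -0.61 and -1.72 for mitosis. With the 48 h arrays alone 8 replication and 7 mitosis genes were called lower, and with the 72 h arrays alone 32 and 24. Without TPC-1 48 h array 1 the counts over both times were 26 and 21, and without array 2 they were 31 and 25. Cell density and growth rate were not among the labels, and their part in these values was not tested.

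**Figure D3:**
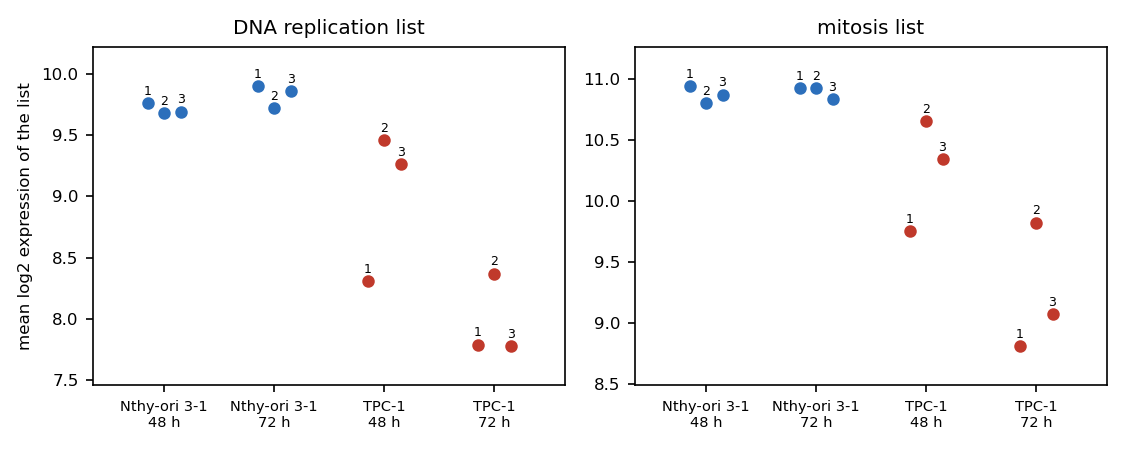
Mean log2 expression (vertical axis) of the 33 DNA replication genes (left) and the 28 mitosis genes (right) in each control array, numbered 1 to 3 within each line and time. The Nthy-ori 3-1 arrays (blue) lie between 9.68 and 9.90 and between 10.80 and 10.94, and all TPC-1 arrays (red) lie lower, with 72 h arrays 1 and 3 the lowest in both lists.

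Among cell cycle regulators, 10 of 24 were lower and 2 higher, with 50% called against 41.6% of all genes. RBL1, the RB relative p107, was lower by -2.25, the factors E2F1 and E2F2 by -1.78 and -1.47, and CDK2 by -1.64. The 2 higher genes were CCND1, cyclin D1 (0.98), and CDKN2A, which encodes the inhibitors p16 and ARF. CDKN2A had 11.19, 11.23 and 11.49 in Nthy-ori 3-1 against 11.63, 12.14 and 12.25 in TPC-1, bright in both lines. Its neighbours CDKN2B (-0.05) and MTAP (-0.17), as well as RB1 (-0.15), were not called.

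Of 28 genes known to mark papillary carcinoma, 12 were higher in TPC-1, 2 were lower and 14 not called. The share called was 50% against 41.6% of all genes, of which 18.8% were higher and 22.8% lower, and the median difference was 0.32. SERPINA1, the protease inhibitor alpha-1 antitrypsin, had 6.80, 7.15 and 7.28 in Nthy-ori 3-1 against 11.23, 11.64 and 11.90 in TPC-1, a 22.5-fold difference, and CLDN1 (1.96), RUNX2 (1.77), DPP4 (1.74), CTSC (1.70), HMGA2 (1.70), TIMP1 (1.69) and MET followed. The galectin LGALS3, a diagnostic marker of thyroid carcinoma, was lower at -0.78 and MUC1 at -0.57. KRT19 (-0.06) and CITED1 (-0.06), also diagnostic markers, were not called.

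Of 35 genes of epithelial junctions and keratins, 2 were higher and 4 lower, a share called of 17.1% against 41.6% of all genes. The tight junction protein OCLN had 8.81, 8.98 and 9.26 in Nthy-ori 3-1 against 5.68, 5.88 and 7.20 in TPC-1, a 7.11-fold deficit. KRT7 was lower by -2.48, PKP2 by -1.29 and CDH1, E-cadherin, by -1.19, whereas CLDN1 was higher. EPCAM was dim in both lines, with no array above 5.80. CDH1 was dim in TPC-1, with no array above 5.25, and reached 7.07 in Nthy-ori 3-1. Its difference was -0.61 at 48 h and -1.76 at 72 h. The mesenchymal intermediate filament VIM was at 12.56 to 13.29 on all 12 arrays (difference 0.05), and CDH2, N-cadherin, was at 9.33 to 10.46 and higher in TPC-1 by 0.57. Of 28 mesenchymal genes (57.1% called) 9 were higher, among them the proteoglycan LUM (4.67) and the factors SNAI2 (2.85) and ZEB1 (1.43), and 7 were lower, among them the contractile CNN1 (-3.29) and the crosslinking enzyme LOX (-2.35).

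Matrix and adhesion genes formed a mixed set with large values on each side. Of 41 collagen, laminin and integrin genes, 15 were higher and 8 lower (56.1% called against 41.6% of all genes). ITGA2 (3.40) and ITGB3 (3.18), subunits of collagen and vitronectin receptors, and the laminin-332 chain LAMB3 (2.78) were higher, and COL1A1, LAMA1 (-2.84), ITGA4 (-2.06) and ITGB4 (-1.64) lower. Among 28 genes of matrix proteolysis, 12 were higher and 5 lower (60.7% called). MMP16, a membrane-bound metalloproteinase, had 5.18, 5.39 and 5.48 in Nthy-ori 3-1 against 9.92, 10.20 and 10.35 in TPC-1, and the collagenase MMP1 had 3.50, 3.95 and 4.31 against 7.23, 8.07 and 9.18. The activator protease MMP14 (2.12) and urokinase, PLAU (1.91), were higher. TIMP3 was 6.67-fold lower and tissue plasminogen activator PLAT 3.46-fold. Of 24 S100 and annexin genes (54.2% called), 9 were higher, led by S100A2 (2.24) and S100A16 (2.08), and 4 lower, led by ANXA8 (-1.83).

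Developmental regulators held some of the widest gaps between the lines. Of 61 transcription factors outside the HOX clusters, 21 were higher in TPC-1 and 8 lower (47.5% called against 41.6% of all genes). PAX6, an eye and endocrine pancreas factor, had 4.02, 4.35 and 4.53 in Nthy-ori 3-1 against 8.55, 9.04 and 9.07 in TPC-1, a 24.1-fold difference (adjusted p 1.95e-11). PAX2, a kidney factor, differed by 4.43 ± 0.31 and EYA1, a cofactor of the same network, by 4.42 ± 0.11. In Nthy-ori 3-1 no array exceeded 5.45 for these 3 genes, and in TPC-1 none was under 7.76. TBX3 was higher by 3.19, and FOXD1, KLF5 (-1.89) and TFAP2A (-1.48) were lower. Of 39 HOX genes 28.2% were called, with 6 higher, none of them by 2-fold, and 5 lower, led by HOXC8 (-2.23), HOXC6 (-1.69) and HOXB7 (-1.49). Of 25 genes of the cancer-testis and BEX families (36% called), 6 were higher, of which only BEX4 (2.20) passed 2-fold. The 3 lower genes were BEX1, SSX1 (-2.48) and MAGEH1 (-1.67). With any single array left out, 2 to 5 were called higher and 3 or 4 lower.

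In the WNT list, 16 of 38 genes were higher and 6 lower (57.9% called against 41.6% of all genes). Besides LGR5, its relative LGR4 (1.69), the receptor ROR1 (2.57) and the nuclear factor LEF1 (2.18) were higher. The secreted inhibitors SFRP1 and DKK1 were 14-fold and 13.2-fold lower. Of 32 genes of the TGF-beta and BMP pathways, 10 were higher and 13 lower (71.9% called). BMP4 (3.91) and TGFBR2 (3.73), a ligand and a receptor, were higher, as were ID2 (2.09) and TGFB1 (1.61). GREM1, whose product binds BMP4, ID3 (-2.68), INHBB (-2.50) and TGFBI (-2.49) were lower.

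Of 46 interferon-stimulated genes, 18 were higher in TPC-1, 5 were lower and 23 not called. The share called was 50% against 41.6% of all genes, and the median difference was 0.27 against -0.01. IFI44L had 3.79, 4.63 and 6.62 in Nthy-ori 3-1 against 8.82, 10.18 and 10.94 in TPC-1, a 38-fold difference. GBP2 differed by 3.94, IFITM2 by 3.48, IFI44 by 2.69, GBP3 by 2.64, OAS2 by 1.82 and the RNA sensor DDX58 by 1.68. Typical members such as ISG15 (0.06), IFIT1 (0.02), MX1 (-0.26) and RSAD2 (-0.10) were not called, and MX2 was lower at -2.50. IFNB1 itself was dim on all arrays, at 3.52 to 4.09, and did not pass the test. The promoter of IFI44L (chr1:78620198-78620497, plus strand, GRCh38.p14), printed as an example chosen after the values were seen, holds 2 copies of the interferon response motif, GAAA, then 2 bases of any kind, then GAAA, shown in capitals.
IFI44L: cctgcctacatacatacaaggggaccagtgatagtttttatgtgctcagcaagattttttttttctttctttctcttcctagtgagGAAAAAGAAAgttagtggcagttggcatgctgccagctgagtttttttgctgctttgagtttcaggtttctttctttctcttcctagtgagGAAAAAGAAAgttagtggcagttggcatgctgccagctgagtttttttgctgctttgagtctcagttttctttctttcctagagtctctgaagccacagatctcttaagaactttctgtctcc
On either strand this motif was in 3.15% of the 14744 windows. It was in 18 of the 315 windows (5.71%) of the genes at least 4-fold higher. For the genes at least 4-fold lower it was in 3 of 159 (1.89%). The AP-1 motif TGANTCA was in 5.65%, 7.62% and 3.14%. The last 2 of these shares stand for 24 and 5 windows. Other motifs scanned did not follow this order and were most frequent in the lower genes. In the same order, the CRE motif was in 2.63%, 1.59% and 3.77%, and the E2F motif in 2.44%, 1.59% and 3.14%. The NKX2-1 motif was in 11.1%, 13.3% and 16.4%. Whether any of these shares differ was not tested. A match describes letters and not binding.

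Of 39 cytokine, chemokine and receptor genes, 15 were higher and 5 lower, with 51.3% called against 41.6% of all genes. The death ligand TNFSF10 (TRAIL) had 4.29, 4.70 and 5.96 in Nthy-ori 3-1 against 8.56, 10.56 and 11.66 in TPC-1, a 41.2-fold difference. IL1B had 3.36, 3.66 and 4.14 against 5.10, 7.93 and 9.96, so the lines were apart but TPC-1 arrays spread widely (difference 3.94 ± 0.61). CXCL1 (3.39), IL1A (2.64) and CCL2 (2.59) were higher, and the chemokine CXCL12 (-2.04), its scavenger receptor ACKR3 (-2.53) and IL18 (-1.89) lower. Among 33 genes of NF-kB and innate sensing (45.5% called) 13 were higher, among them TLR4 (2.69), NFKBIZ (2.19), TLR3 (1.93) and BIRC3 (1.86), and 2 lower. TLR4 was dim in TPC-1 too, with no array above 6.09. Of 27 MHC and antigen presentation genes, 10 were higher and 4 lower (51.9% called). The peptide-trimming ERAP2 was higher by 3.67 ± 0.11, ERAP1 by 1.34 and TAP2 by 1.09, HLA-DMA was lower by -1.27 and HLA-DPB1 by -1.22, and HLA-B (0.40) and B2M (0.10) were not called.

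**Figure D4:**
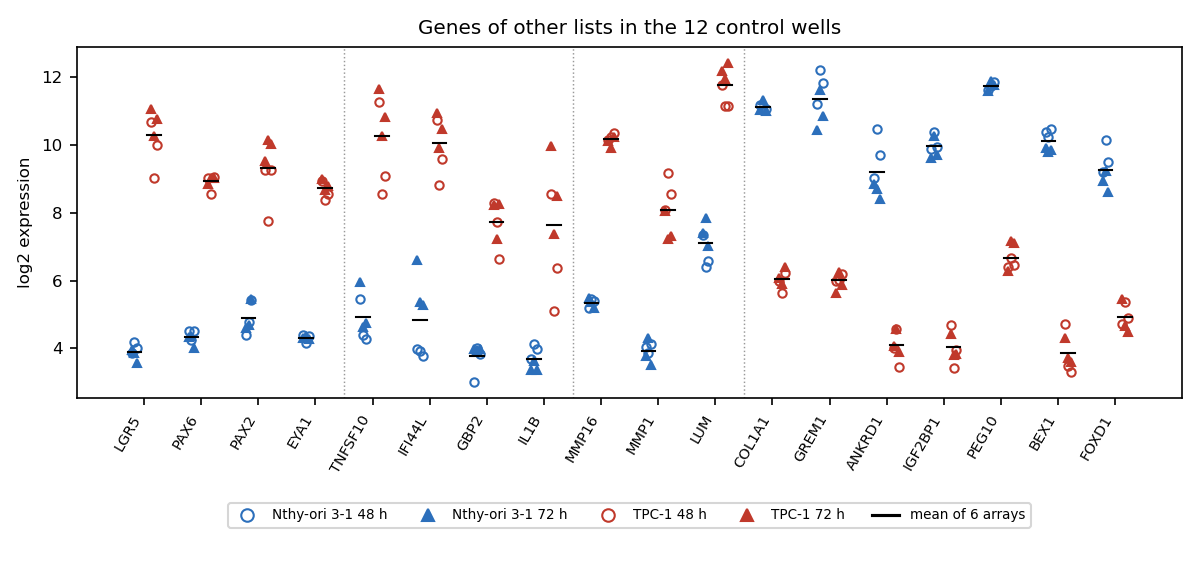
Log2 expression (vertical axis) of 18 genes in each of the 12 control arrays, marked as blue for Nthy-ori 3-1 and red for TPC-1, open circles at 48 h and triangles at 72 h, with a bar at the mean of 6 arrays. The sections hold WNT and developmental genes, immune genes, matrix genes higher in TPC-1, and 7 genes lower in TPC-1, and within no gene do the lines overlap.

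Of 43 genes of xenobiotic and redox metabolism, 20 were higher and 7 lower, with 62.8% called against 41.6% of all genes and a median difference of 0.32. They held the ketosteroid reductase AKR1C3 (3.56), the exporter ABCC3 (2.67) and the quinone reductase NQO1 (1.94) on one side and the exporter ABCG2 (-2.43) and GSTM3 (-1.73) on the other. Of 31 genes of amino acid transport and synthesis, 9 were higher and 7 lower (51.6% called). SLC38A5, a glutamine transporter, had 3.46, 3.86 and 4.13 against 8.38, 8.79 and 9.61, a 33-fold difference. The taurine transporter SLC6A6 (3.66) and glutamine synthetase GLUL (2.03) were higher too. The lower members included ASNS, SLC1A4, MTHFD2, PYCR1 and SHMT2. ASNS had a median of 9.18 in Nthy-ori 3-1 against 7.92 in TPC-1, with overlapping arrays. The median difference over the list was -0.03. The list of glycolysis and glucose uptake had 9 higher and 6 lower of 28 (53.6% called). It also holds the carbonic anhydrase genes CA12, which was higher (2.09), and CA9, which was lower (-1.26). Of its enzymes, the hexokinase HK2 (0.96), GPI (0.87) and PKM (0.84) were higher, and PGAM1 (-1.24), ENO2 (-0.99) and PGK1 (-0.47) lower. Sterol and fatty acid synthesis had 8 higher and 9 lower of 32 (53.1%), with the elongase ELOVL6 (2.56) higher and CYP51A1 (-1.55) and FDPS (-0.91) lower. The media differed in composition, and their part in these values was not tested.

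COPZ1, the gene depleted elsewhere in the study, did not pass the test between the lines. It had 10.97, 11.19 and 11.34 in Nthy-ori 3-1 against 11.02, 11.14 and 11.17 in TPC-1, a difference of -0.07 ± 0.08. Its paralogue COPZ2 was lower in TPC-1 by -0.53 ± 0.10 (8.14, 8.22 and 8.45 against 7.49, 7.77 and 7.94). COPG2 was lower by -1.31, while COPA (-0.04), COPB1 (0.14), COPB2 (0.08), ARCN1 (0.17), COPE (-0.09) and COPG1 (-0.18) were not called. In the whole list of 29 COPI genes 3 were higher and 8 lower, a share called of 37.9%, near the 41.6% of all genes. Of 38 cytosolic ribosomal protein genes in the list, 5 were higher and 12 lower (44.7% called, also near that of all genes), with RPL37 (-1.35) and RPL32 (-1.31) past 2-fold. RPS26 (-1.95) and RPL41 (-1.86), which are not in the list, were lower by more. Processed copies of these genes may share probes with them.

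Markers of other cell types were looked at for other cells in the wells, and cannot tell which line a well held. Of 35, 3 were called higher and 1 lower (11.4% against 41.6% of all genes), none by 2-fold. The blood and endothelial markers PTPRC (0.03), CD3E (0.13), PECAM1 (0.18) and VWF (-0.11) and the C cell marker CALCA (-0.12) were not called. The mean level over the 35 was 4.75 to 4.95 in Nthy-ori 3-1 arrays and 4.70 to 4.91 in TPC-1 arrays.

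**Figure D5:**
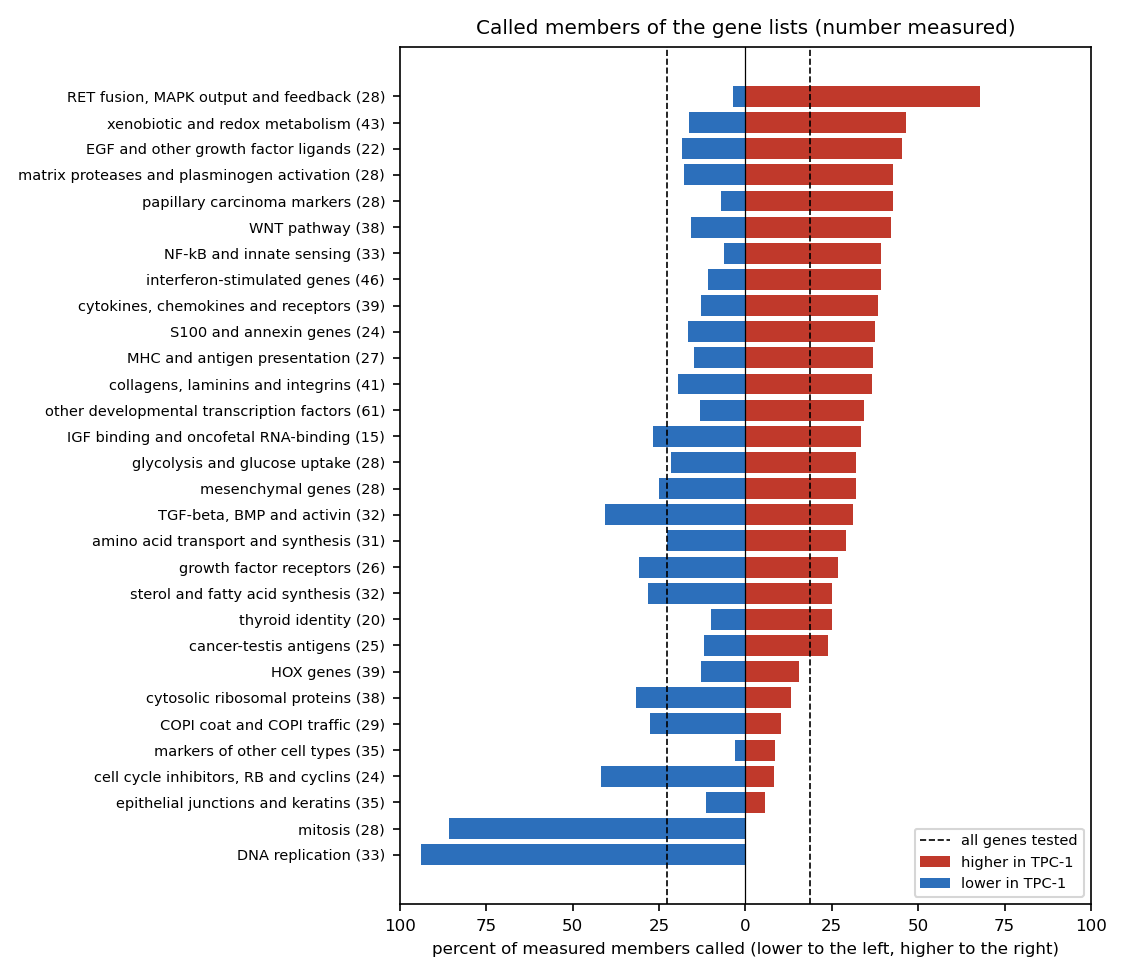
Percent of the measured members of each gene list shown called higher (red, to the right) or lower (blue, to the left) in TPC-1, with the number measured in brackets. Dashed lines mark all genes tested, 18.8% higher and 22.8% lower, and DNA replication and mitosis have no member called higher.

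Some of the 2-fold differences fell on neighbouring genes. When 18400 genes were placed in RefSeq order, 9 runs of at least 4 neighbours all passed 2-fold in a single direction, 4 higher and 5 lower, the longest with 6 genes. TM4SF18 (4.83), TM4SF1 (7.73), TM4SF4 (2.01) and WWTR1 (1.68), which encodes the YAP paralogue TAZ, formed a higher run. The pair IFI44L and IFI44 continued into ADGRL4 (5.46) and ADGRL2 (3.79). CDS1 (1.24), WDFY3 (1.12), ARHGAP24 (4.81), MAPK10 (2.09) and PTPN13 (2.53) formed another. IKZF4 (-1.29), RPS26 (-1.95), ERBB3 (-2.32), PA2G4 (-1.75) and RPL41 (-1.86) were jointly lower, as were the 6 neighbours from CPSF4 (-1.81) to FAM200A (-1.12). Each member of the 9 runs was called in the same direction in the depleted wells, near the 94.2% of all genes called with at least a 2-fold difference. Copy number was not measured.

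The line difference was largely the same set of genes in wells that shared no array with the control wells. In the 12 COPZ1-depleted arrays 7497 genes (40.2%) differed between the lines. Of the 2479 genes called with at least a 2-fold difference in control wells, 2335, or 94.2%, were called in the same direction there and 0 in the opposite. Of all 7748 calls, 5878 (75.9%) were called in the same direction and 20 in the opposite. Some genes were further apart after depletion, such as MMP1 (4.14 in control and 7.52 in depleted wells), IL1A (2.64 and 6.17) and CCL2 (2.59 and 4.02), and others were closer, such as IL7R, SLCO4C1 (5.50 and 3.47) and IGFBP5 (2.63 and 0.68). The test of that change belongs to the depletion and was not run here.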

How the data were processed

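Total RNA from cultured cells was labelled with biotin by the Affymetrix whole-transcript protocol, per the labels, and measured on 1 array per well. The authors deposited 1 table of log2 values, from 1.7 to 14.2, per gene and array; per the submitters' processing notes they come from RMA. Neither the chip type nor the software version, and no genome build, is given in the sources used here. RMA makes the distributions of all arrays alike, which removes shifts shared by most genes, and compresses differences of dim genes. The number of arrays limits the precision, since no counts exist.

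The table has 18637 lines. Spreadsheet software had turned 28 symbols into numbers, and these genes were kept by identifier. For 5 symbols on more than 1 line the brighter was kept, leaving 18632 genes, 18432 with a current RefSeq symbol. The 12 control arrays were fitted with line and time in limma 3.58.1 (R 4.3.3, lmFit and eBayes, two-sided, Benjamini-Hochberg over all genes). Depleted wells were fitted in the same way. A fit with 4 group means gave the differences at each time and their change. The methods were tested on simulated data. Of 1003 members of 31 gene lists, 984 were measured; lists are described by counts and medians, and some members and 1 list are not reported here. Named are the 15 largest non-overlapping differences in each direction and up to 5 called members per list and direction. Passed over in this choice were clone-named, unnamed and noncoding entries such as antisense and microRNA genes, XIST and Y-linked genes. A set of identity genes and list members that did not pass the test are named too. List members beyond these were chosen after their values were seen. The members and lists were chosen with earlier results of these data known. Promoter windows in RefSeq hold 300 bases.

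Same-numbered wells of the lines had correlations of deviations from -0.051 to 0.099, so replicate numbers were not used as pairs. The alternatives were another set of arrays, centring, a filter on dim genes, another variance model, a minimum-difference test, a replicate block, depleted wells, each time alone and each array left out.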

Additional observations from a re-analysis of the deposited data

How the results depend on the processing

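The count of 7748 called genes was 8221 with all 24 arrays and 8 group means, 7777 after centring each array on its median, 7781 with trended and robust variances, 7095 without the dimmest tertile of genes, 7497 in depleted wells, 6404 with the 72 h arrays alone and 7076 to 8332 with any single array left out. It was 3737 with the 48 h arrays alone, the cause of which was not tested, and 978 when the difference itself had to exceed 2-fold by limma's treat, of which 64% were higher in TPC-1 against 45.1% in the main result. The count of 2-fold calls was 2389 to 2747 with any single array left out. With the replicate number as a block, which the deviations do not bear out as a pairing, 7429 genes were called, 7189 of them shared, and 8 of 303 named genes lost their call. The count of 0 genes whose line difference changed between the times became 10 with all 24 arrays, 209 in depleted wells and 0 to 173 with single arrays left out; the cause was not tested. Of the 303 named genes, 147 kept their call and direction in every setting that tested them. Under treat, where the difference had to exceed 2-fold, 154 were weaker, and 61 were weaker with the 48 h arrays alone. Leaving out the dimmest tertile left some named genes untested. In depleted wells 5 changed sign, namely NRG1 (0.06), IGFBP3 (-0.54), ZEB2 (0.03), CD274 (0.37) and MAGEC2 (-0.02). Leaving out single arrays gave 26 to 32 replication genes and 21 to 25 mitosis genes called lower, and 19 or 20 MAPK genes and 17 to 19 interferon-stimulated genes called higher. The depth of an array cannot be read from these values, and dim genes have the least certain differences.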

Other observations

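Lists of kidney genes were written after the values were seen and include the genes that prompted them, so their counts are a description and support nothing. Of 20 genes of kidney development, 10 were higher in TPC-1, 1 was lower and 9 were not called, with a median difference of 0.41, where 18.8% of all genes were higher and 22.8% lower. SALL1, a zinc finger factor of kidney progenitors, had mean log2 levels of 4.62 in Nthy-ori 3-1 against 9.77 in TPC-1, a difference of 5.15 ± 0.17 (limma adjusted p 9.61e-11). PAX2 and EYA1 differed by 4.43 and 4.42, IRX3 by 2.43 and LHX1 by 1.89. The progenitor genes SIX2 (-0.14), OSR1 (0.05) and WNT4 (-0.07) were not called, and the stromal factor FOXD1 was lower at -4.34. Of 25 genes of kidney tubules, 10 were higher, 1 was lower and 14 were not called. HAVCR1, SLCO4C1, CDH6, the potassium channel KCNJ16 (5.42), the glucuronosyltransferase UGT2B7 (4.31), PDZK1IP1 (4.30) and the urea transporter SLC14A1 (4.06) were higher. SLC14A1 spread from 5.85 to 10.64 over the TPC-1 arrays. Its difference was 2.70 at 48 h, 5.42 at 72 h and 1.36 in the depleted wells. UMOD (-0.09), AQP1 (-0.23), LRP2 (0.25), CUBN (0.10) and SLC34A1 (-0.01), which define mature segments, were not called and had line means of 4.71 to 6.98.

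STAG2, a subunit of the cohesin ring, had mean levels of 10.67 in Nthy-ori 3-1 against 6.92 in TPC-1, a difference of -3.75 ± 0.14 (limma adjusted p 4.39e-10). Of 9 cohesin genes, chosen after this value was seen, 6 were lower in TPC-1 and none was higher, where 22.8% of all genes were lower and 18.8% higher. Its paralogue STAG1 differed by -0.66, SMC3 by -0.94, SMC1A by -0.81 and NIPBL by -0.87, while RAD21 (0.05), PDS5A (-0.05) and PDS5B (-0.24) were not called. STAG2 was the only one of the 9 past 2-fold.

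Of 43 histone genes measured, in a list also written after values were seen, 27 were lower in TPC-1, 2 higher and 14 not called, where 22.8% of all genes were lower and 18.8% higher. HIST1H2BB had means of 4.76 in Nthy-ori 3-1 against 9.66 in TPC-1 and a difference of 4.90 ± 0.60, and HIST1H1A was higher by 1.70. Members of this family may share probes, so values of single members are uncertain.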
